A study of Mus musculus with 6 samples.

Results

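The Schwann cell and myelin genes described here are 8 genes, Pmp22, Mbp, Prx, Cnp, Mal, S100b, Sox10 and Egr2, taken by symbol from the deposited count matrix of a mouse lip RNA-Seq experiment. They were listed by name, with no measured value in the rule but with earlier results of these data known, and they are 8 of the 26814 genes counted. Levels are given as CPM, the reads of a gene scaled to the total of its library, and all 8 passed the filter of 1 CPM in 3 or more libraries that left 15009 genes to be tested. The experiment compared top lip tissue of adult female mice homozygous for the targeted allele Gtf2ird1 tm1Hrd (labelled KO) with that of adult female wild-type mice (labelled WT), to find genes whose transcript levels depend on Gtf2ird1, which encodes a transcription factor of the TFII-I family. There were 3 mice per genotype and 1 paired-end mRNA library per mouse. Both groups were of the C57BL/6J background, on which the mutant line had been kept for over 20 generations, and the mice were 2 to 6 months old. The tissue was whole lip, not sorted cells, so each value sums over every cell type present. Libraries are named WT1 to WT3 and KO1 to KO3 by their labels.

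In peripheral nerve, Schwann cells line up along axons, and those around large axons wrap their membrane into a compact myelin sheath that speeds conduction. SOX10, a transcription factor of neural crest descendants, is needed throughout the lineage and acts with EGR2 (Krox20), the main regulator of the myelinating state, to turn on the genes of myelin proteins and lipids. Pmp22 and Mbp encode a membrane and a cytoplasmic protein of compact myelin, Prx encodes periaxin, which links the outer Schwann cell membrane to the surrounding matrix, Cnp encodes a phosphodiesterase of uncompacted myelin, Mal encodes a proteolipid of myelin and of epithelial membranes, and S100b encodes a calcium-binding protein long used as a Schwann cell marker. The lip is densely supplied by branches of the trigeminal and facial nerves.

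The promoters of 3 members are shown. Pmp22 and Prx had the most alike levels of any pair of members over the 6 libraries. Cnp alone, of the 6 members whose promoters were searched, held one of the motifs. They are bases before the annotated gene start, from RefSeq promoter sequences of GRCm38.p6, on the plus strand, 5′ to 3′, with a motif match in capitals. They lie at chr11:63128732-63128981 for Pmp22, chr7:27499074-27499323 for Prx and chr11:100574689-100574903 for Cnp.
Pmp22: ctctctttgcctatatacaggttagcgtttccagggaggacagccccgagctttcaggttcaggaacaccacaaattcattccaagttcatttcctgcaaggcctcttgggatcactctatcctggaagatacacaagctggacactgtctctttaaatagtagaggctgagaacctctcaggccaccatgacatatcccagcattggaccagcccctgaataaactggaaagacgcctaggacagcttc
Prx: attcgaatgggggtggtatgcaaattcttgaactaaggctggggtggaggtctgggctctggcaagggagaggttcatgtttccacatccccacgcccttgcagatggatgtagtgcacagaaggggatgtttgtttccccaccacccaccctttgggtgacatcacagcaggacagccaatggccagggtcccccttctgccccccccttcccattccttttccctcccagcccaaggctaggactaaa
Cnp: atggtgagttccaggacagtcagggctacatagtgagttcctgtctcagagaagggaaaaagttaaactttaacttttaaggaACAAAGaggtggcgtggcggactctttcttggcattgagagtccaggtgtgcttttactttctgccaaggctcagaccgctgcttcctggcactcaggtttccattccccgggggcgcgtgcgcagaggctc
RefSeq promoters of 6 of the 8 members were used, and those of Mbp and Sox10 were not searched. The 250 bases upstream of each start were searched on both strands for the EGR letters GCGNGGGCG and for the SOX letters ACAAAG or ACAATG. The EGR letters were in 4.7% and the SOX letters in 25.2% of all 32851 promoters of the same length. Among the 6 members searched, the SOX letters were found in the Cnp promoter, at position -132 from the annotated gene start and -167 from the RefSeq start. Neither motif was found at any listed start of Pmp22 (4 starts), Prx, Mal, S100b or Egr2 (5 starts). A match is a description of these letters and not a binding site.

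The libraries held 20164081 to 29491767 counts on genes, and 3 counts, the limit that a count of 0 allows, were 0.0986 to 0.154 CPM. The targeted gene, Gtf2ird1, had 70.2 to 78.2 CPM in the libraries labelled WT and 144 to 166 CPM in those labelled KO (log2 fold change 1.11, SE 0.13, adjusted p = 0.0018, edgeR's quasi-likelihood test). It was thus higher, not lower, in the libraries labelled KO, and directions here refer to libraries by their label. Counts per gene do not separate reads of the targeted allele from those of an intact allele. KO3 stood apart from KO1 and KO2. Over all tested genes its log2 CPM correlated at 0.957 with KO1 and 0.969 with KO2, against 0.984 between KO1 and KO2 and 0.948 to 0.955 with the WT libraries, so the members are described with and without it.

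No member passed an adjusted p of 0.05 in edgeR's quasi-likelihood test over all 6 libraries, in either direction. Of all tested genes, 2.09% (314) passed as lower and 4.38% (657) as higher. Each of the 8 members had a negative log2 fold change, as did 52.0% of all tested genes, and their median was -0.52 beside -0.02 for all tested genes. At an unadjusted p under 0.05, 4 members (Pmp22, Prx, Mal and Sox10) were lower and 0 higher, and 16.0% of all tested genes were lower at that level. In 4 members (Pmp22, Mbp, Prx and Sox10) each of the 3 KO libraries was below the lowest WT library, which held for 18.1% of all tested genes. Each value sums over every cell type of the lip, so a change in cell makeup and a change in RNA per cell cannot be told apart. The members' separate values follow, first the myelin proteins, then S100b, then the transcription factors.

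Pmp22 (chr11:63128982-63159547, GRCm38) encodes peripheral myelin protein 22, a tetraspan protein of compact myelin. Its level was 171, 188 and 172 CPM in WT1 to WT3 and 96.3, 80.6 and 149 CPM in KO1 to KO3. The groups did not overlap, with KO1 and KO2 far below WT and KO3 nearer to it. The means were 177 ± 9.50 CPM (SD, n = 3) in WT and 109 ± 35.7 CPM (SD, n = 3) in KO, a log2 fold change of -0.71 (SE 0.22, 95% interval -1.22 to -0.20), and it did not pass (adjusted p = 0.0880). edgeR's exact test, which the methods of the study name, called Pmp22 lower (adjusted p = 0.0335), and it was the 1 member that test called, where 7.15% of all tested genes were called lower.

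Mbp (chr18:82475146-82585637) encodes myelin basic protein, which holds the cytoplasmic faces of the sheath together. It had 132, 122 and 118 CPM in WT1 to WT3 and 91.0, 80.8 and 117 CPM in KO1 to KO3. KO1 and KO2 were below the WT range, and KO3 was at its lower edge, under WT3 by less than 0.1 CPM. The means were 124 ± 7.55 and 96.4 ± 18.9 CPM (SD, n = 3 each), and the log2 fold change was -0.36 (SE 0.16, interval -0.73 to 0.01), which did not pass (adjusted p = 0.177).

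Prx (chr7:27499324-27520214) had 49.8, 47.9 and 49.9 CPM in WT1 to WT3, the narrowest spread of any member relative to its mean, and 29.1, 23.7 and 44.8 CPM in KO1 to KO3. The groups did not overlap, and KO3 was again the KO library nearest to WT. The means were 49.2 ± 1.11 and 32.5 ± 10.9 CPM (SD, n = 3 each), with a log2 fold change of -0.60 (SE 0.22, interval -1.12 to -0.08, adjusted p = 0.127). Prx overlaps Gm15541 on the opposite strand, and the strand setting of the counting is not given in the sources used here, so reads of the overlap could not be assigned to a strand.

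Cnp (chr11:100574904-100591729), whose promoter held the SOX letters, had 28.7, 24.7 and 29.8 CPM in WT1 to WT3 and 13.3, 14.5 and 27.9 CPM in KO1 to KO3. KO1 and KO2 were far below the WT range, whereas KO3 lay inside it, so the groups overlapped. The means were 27.7 ± 2.68 and 18.6 ± 8.09 CPM (SD, n = 3 each), and the log2 fold change was -0.58 (SE 0.28, interval -1.22 to 0.06, adjusted p = 0.202). Cnp overlaps Dnajc7 on the opposite strand, a gene whose own log2 fold change was 0.39 (adjusted p = 0.245), of the opposite sign.

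Mal (chr2:127633226-127656695) had 13.1, 13.3 and 9.53 CPM in WT1 to WT3 and 8.39, 7.79 and 10.01 CPM in KO1 to KO3. The groups overlapped, since KO3 exceeded WT3. The means were 12.01 ± 2.14 and 8.73 ± 1.15 CPM (SD, n = 3 each), with a log2 fold change of -0.46 (SE 0.20, interval -0.91 to -0.01, adjusted p = 0.161). Mal is also made by stratified epithelium. The mucosal keratins Krt4 and Krt13 stood at 1987 and 2805 CPM in WT1 and at 9.40 to 115 and 20.1 to 111 CPM in the other 5 libraries, and the part of epithelium in the Mal values was not tested.

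S100b (chr10:76253853-76261159) was the member with the fewest reads, at 3.41, 4.12 and 3.60 CPM in WT1 to WT3 and 3.07, 2.99 and 3.57 CPM in KO1 to KO3. KO3 lay within the WT range, so the groups overlapped. The means were 3.71 ± 0.369 and 3.21 ± 0.312 CPM (SD, n = 3 each), with a log2 fold change of -0.21 (SE 0.19, interval -0.66 to 0.24, adjusted p = 0.492). A decrease of the size seen in Prx therefore lay within the interval of S100b.

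Sox10 (chr15:79154908-79165240) had 10.1, 8.37 and 13.1 CPM in WT1 to WT3 and 5.53, 5.72 and 8.14 CPM in KO1 to KO3. The groups did not overlap, with KO3 just under WT2. The means were 10.5 ± 2.39 and 6.46 ± 1.46 CPM (SD, n = 3 each), and the log2 fold change of -0.70 (SE 0.24, interval -1.25 to -0.16) was close to that of Pmp22 and did not pass (adjusted p = 0.102).

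Egr2 (chr10:67535475-67542188) had 124, 112 and 112 CPM in WT1 to WT3 and 117, 107 and 104 CPM in KO1 to KO3. The groups overlapped, and in contrast to the other members KO3 was the lowest library and KO1 was above the WT mean. The means were 116 ± 6.97 and 109 ± 6.98 CPM (SD, n = 3 each), with a log2 fold change of -0.08 (SE 0.12, interval -0.36 to 0.20, adjusted p = 0.670). The interval of Egr2 did not reach the log2 fold changes of Pmp22 or Sox10. Egr2 is also made by myeloid cells, T cells and other stimulated cells.

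**Figure D1:**
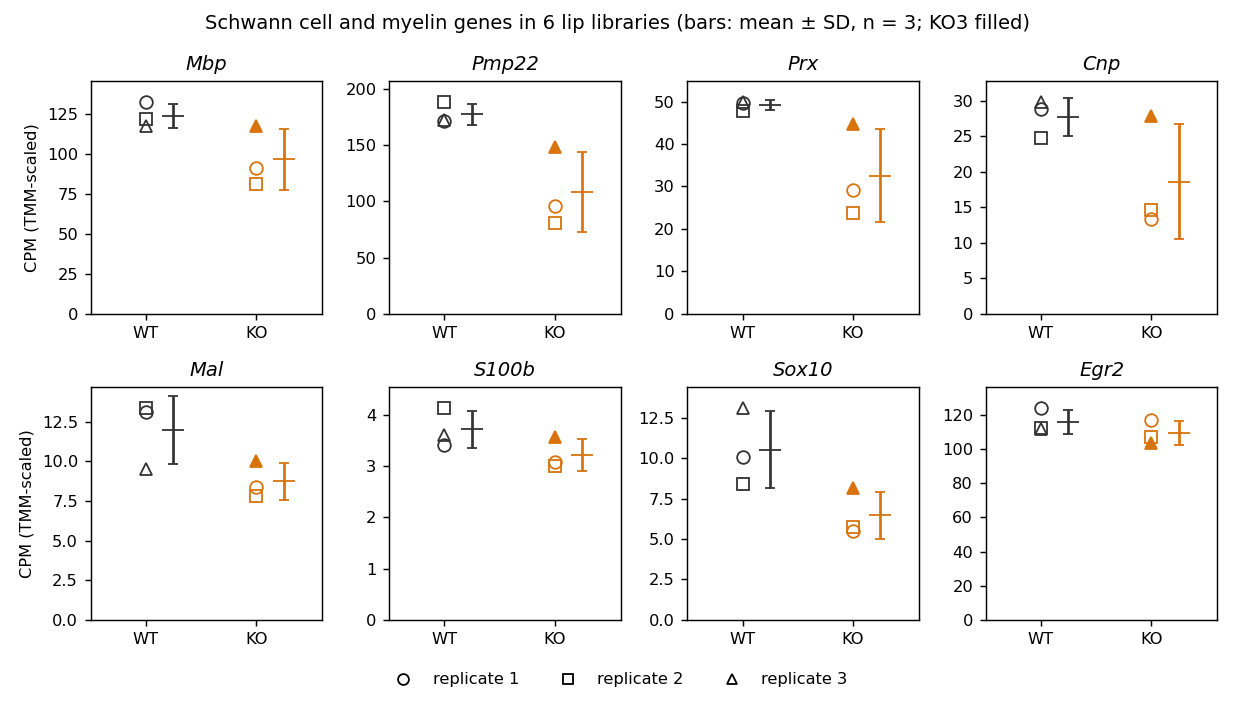
Level of each member in CPM (TMM-scaled, linear axes from 0, a scale per gene) in the 3 WT libraries (grey) and the 3 libraries labelled KO (orange, KO3 filled), with mean and SD (n = 3) beside them. In 7 of the 8 panels KO3 sits above KO1 and KO2, and in Egr2 it is the lowest.

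Read by library, 7 of the 8 members stood lower in KO1 and KO2 than in KO3, and Egr2 was the exception, with 101%, 92.6% and 89.4% of its WT mean in KO1 to KO3. Relative to the WT mean of each gene, members stood at 48.0% to 101% in KO1 (median 64.5%), at 45.5% to 92.6% in KO2 (median 59.6%) and at 77.4% to 101% in KO3 (median 90.2%). Below the lowest WT library were 7 members in KO1, 8 in KO2 and 5 in KO3, where 38.1%, 38.7% and 34.8% of all tested genes lay in these libraries. When KO3 was left out, 5 members passed as lower, and 16.2% of all tested genes did so in that comparison of 3 WT with 2 KO libraries. These were Pmp22 (log2 fold change -0.999, adjusted p = 0.00179), Cnp (-0.99, adjusted p = 0.0025), Sox10 (-0.90, adjusted p = 0.0146), Prx (-0.89, adjusted p = 0.00278) and Mbp (-0.52, adjusted p = 0.0182). Mal, S100b and Egr2 did not pass there. Leaving out any of the other 5 libraries left 0 members called, and several values were then smaller in size. Without KO2, the log2 fold changes were -0.48 in Pmp22, -0.36 in Prx, -0.37 in Cnp and -0.19 in Mbp, and without KO1 that of Cnp was -0.33. Sox10 had its value of smallest size, -0.52, without WT3, Mal and S100b theirs, -0.32 and -0.07, without WT2, and Egr2 its own, -0.01, without KO2. Across the 6 libraries, DESeq2 called 0 members, with 5.31% of its tested genes lower, and limma-voom called 0, with 2.21% lower.

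**Figure D2:**
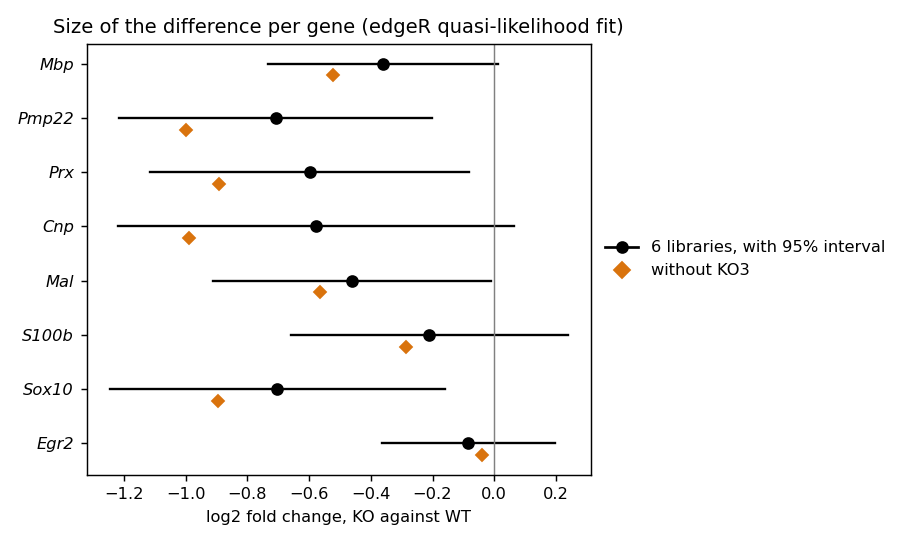
Log2 fold change (KO against WT) of each member in edgeR's quasi-likelihood fit of all 6 libraries (black points, lines for the 95% interval) and of the 5 libraries without KO3 (orange diamonds). All points lie below 0, from -0.08 in Egr2 to -0.71 in Pmp22 with 6 libraries, and 7 of the 8 diamonds lie further from 0.

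Per kilobase of exon, the WT levels ran in the order Pmp22 (75.3 ± 4.04 CPM per kb, SD, n = 3), Egr2 (34.1 ± 2.05), Mbp (14.6 ± 0.892), Prx (8.82 ± 0.199), Cnp (7.62 ± 0.737), Mal (4.32 ± 0.772), Sox10 (3.45 ± 0.782) and S100b (2.50 ± 0.249). Neighbours in this order did not overlap except Mal with Sox10 and Sox10 with S100b. The transcription factor Egr2 thus stood among the myelin protein genes in level per kilobase and well above Sox10. In the libraries labelled KO, Pmp22 (46.1 ± 15.2 CPM per kb) overlapped Egr2 (32.2 ± 2.05), Prx (5.83 ± 1.96) overlapped Cnp (5.10 ± 2.22), and Sox10 (2.12 ± 0.477) stood beside S100b (2.16 ± 0.210).

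The members varied together to different degrees over the 6 libraries, which share the genotype difference and the tissue makeup. Of 28 pairs of members, 15 had a Pearson correlation of log2 CPM above 0.8, and the median was 0.806. After the group means were removed the median was 0.544, the lowest was -0.654 (S100b with Egr2), and Mal with Sox10 went from 0.539 to -0.195. Pmp22 and Prx were most alike (0.986, and 0.972 after the group means were removed), followed by Mbp with Prx (0.981). Egr2 had no correlation above 0.427 with any member, and its lowest was -0.0762, with S100b. Among all tested genes, the most like Pmp22 were Gdf10 (0.999) and Ncmap (0.998), the latter encoding a protein of noncompact myelin, and the most like Mbp were Xk (0.998) and Stat5a (0.993). Prx was most like Vash2 (0.997) and Acadvl (0.995), Cnp most like Fcer1g (0.999) and Scara3 (0.998), and Mal most like Clcn6 and Foxl2os (both 0.996). S100b was most like Pcsk5 (0.999) and Podn (0.994), Sox10 most like Dgcr6 (0.9995) and Chpf2 (0.997), and Egr2 most like Osbpl7 (0.984) and Bcl2l11 (0.973). These names are a description over 6 libraries.

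Of 13 other genes of the peripheral myelin sheath, its lipids and its junctions, 12 were tested. Tspan2, a tetraspanin, passed as lower (log2 fold change -0.72, SE 0.17, adjusted p = 0.0482, overlapping Tspan2os on the opposite strand), and 0 passed as higher. The call of Tspan2 was lost in limma-voom (adjusted p = 0.0531), in the replicate block (0.0637) and when any library other than KO3 was left out (0.103 to 0.220). It was kept in edgeR's exact test (adjusted p = 0.0249) and in DESeq2 (0.0138). These tools called 2 and 1 genes of the list lower, beside 7.15% and 5.31% of all tested genes. All 12 log2 fold changes were negative, with a median of -0.54 beside -0.02 for all tested genes. Mag, an adhesion protein of the inner sheath, had a log2 fold change of -0.64 (SE 0.30, adjusted p = 0.201). Without KO3, 6 of 11 tested genes of the list passed as lower, Mag (-0.91, adjusted p = 0.0407) and Tspan2 (-0.70, adjusted p = 0.0211) among them, where 16.2% of all tested genes did. Without KO2, Mag stood at -0.29 (adjusted p = 0.571). Fa2h, a hydroxylase of myelin lipids, had the highest CPM of the list, at 749 to 1191 in WT and 351 to 781 in KO, and it is also made by skin glands.

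The oligodendrocyte genes Mog, Opalin and Ermn had at most 3 counts in every library, and Hapln2, the fourth gene analysed, had at most 15. None of these 4 passed the filter.

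Of 14 tested regulators of Schwann cell myelination, 0 passed in either direction, while 3 were lower and 1 higher at an unadjusted p under 0.05. At that level 16.0% of all tested genes were lower. The signs were mixed, 6 negative and 8 positive, with a median of 0.08. The neuregulin receptors Erbb2 (log2 fold change 0.21, adjusted p = 0.325) and Erbb3 (0.28, adjusted p = 0.189) had the highest levels, at 165 to 230 and 173 to 235 CPM. Both are also made by epidermis. edgeR's exact test and DESeq2 each called 1 regulator lower, limma-voom called 0, and without KO3 4 of the 14 passed as lower, beside 7.15%, 5.31%, 2.21% and 16.2% of all tested genes.

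Of 12 tested genes of immature, non-myelinating and repair Schwann cells, 2 fell and 1 rose, beside 2.09% and 4.38% of all tested genes, with a median of -0.27. Ngfr, the p75 neurotrophin receptor, fell from 30.6, 20.2 and 30.9 CPM in WT1 to WT3 to 14.2, 15.8 and 13.4 CPM in KO1 to KO3 (log2 fold change -0.91, SE 0.20, adjusted p = 0.0353). Here KO3 was the lowest library, as in the member Egr2, whereas in the other members KO3 was the highest of the KO libraries. Ncam1, a neural adhesion molecule also made by muscle, fell from 10.5 to 11.5 CPM in WT to 4.86, 4.41 and 7.59 CPM in KO1 to KO3 (log2 fold change -0.96, SE 0.23, adjusted p = 0.0482). Ncam1 overlaps Gm11149 on the opposite strand. Sostdc1, a secreted antagonist of BMP and Wnt signals that epithelium and hair follicles also make, rose from 111, 81.5 and 145 to 210, 235 and 298 CPM (log2 fold change 1.14, SE 0.23, adjusted p = 0.0279). Without KO3, Ngfr (adjusted p = 0.0135), Ncam1 (0.00179) and Sostdc1 (0.00834) passed as well, and 5 of the 12 genes were lower and 1 higher, beside 16.2% and 16.9% of all tested genes. Of the other 5 libraries, leaving out any lost the call of Ncam1 (adjusted p up to 0.227), any but WT2 that of Ngfr (up to 0.147), and WT1, WT2 or KO2 that of Sostdc1 (up to 0.121).

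Markers of other cell types in the lip were read in the same libraries. The 8 members summed to 520 ± 12.8 CPM (SD, n = 3) in WT, and KO1, KO2 and KO3 stood at 69.9%, 62.2% and 89.2% of the WT mean. Pmp22 (177 CPM), Mbp (124 CPM) and Egr2 (116 CPM) made up most of that WT sum. The other myelin genes without Fa2h, a sum chosen after the data were seen because Fa2h alone made up most of it, stood at 73.4%, 65.9% and 86.1%, and with Fa2h at 40.0%, 54.4% and 79.7%. All 8 skeletal muscle markers had negative log2 fold changes (median -1.07) and groups that did not overlap. Of all tested genes, 18.1% had every KO library below every WT library. Tnnt3 (-1.01, adjusted p = 0.0397), Tnni2 (-1.05, adjusted p = 0.0484) and Pvalb (-1.17, adjusted p = 0.0343), components of fast muscle fibres, fell. The muscle sum stood at 33.0%, 44.6% and 69.3% of the WT mean in KO1 to KO3, so KO3 was nearest to WT there too, and without KO3 all 8 passed as lower. Leaving out any other library lost the calls of Tnnt3, Tnni2 and Pvalb (adjusted p 0.0560 to 0.225). edgeR's exact test and DESeq2 called 7 of the 8 lower and limma-voom 4. Of all tested genes, 7.15%, 5.31% and 2.21% were lower in these tests, and 16.2% without KO3. The dermal fibroblast sum, led by Col3a1 and Col1a2, stood at 39.7%, 50.2% and 94.8%. Of its 8 genes 0 were called and 1 was lower at an unadjusted p under 0.05, beside 16.0% of all tested genes. The median was -0.37, and without KO3 4 of the 8 passed as lower.

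Of the cell types that share a member with Schwann cells, melanocytes make Sox10 and S100b. Of their 6 tested markers 0 passed and 1 was lower at an unadjusted p under 0.05 (median -0.37), beside 16.0% of all tested genes. The sum stood at 76.2%, 73.8% and 75.1% of the WT mean. Mitf (log2 fold change -0.37, adjusted p = 0.226) and Kit (-0.59, adjusted p = 0.0790) had the highest CPM. Without KO3, 1 of the 6 passed as lower, Kit (-0.72, adjusted p = 0.0104), where 16.2% of all tested genes did. Of 6 adipocyte markers, whose cells also make S100b, Fabp4 fell (-0.65, adjusted p = 0.0303), the median was -0.75 and the sum stood at 67.5%, 61.5% and 71.2%. The exact test called 2 of them lower, DESeq2 and limma-voom 1 each, and 3 of 5 tested passed as lower without KO3. Of all tested genes, 7.15%, 5.31%, 2.21% and 16.2% were lower in these comparisons. Leaving out any library other than KO3 lost the call of Fabp4 (adjusted p 0.0734 to 0.153). Of 6 macrophage markers, whose cells make Egr2, 0 passed at an adjusted or unadjusted p of 0.05, the median was -0.03 and the sum stood at 87.4%, 85.5% and 108%, with Csf1r (-0.22, adjusted p = 0.537) and Mrc1 (0.05, adjusted p = 0.893) at the highest CPM. Without KO3, 1 of the 6 passed as lower, Csf1r (-0.54, adjusted p = 0.0159), where 16.2% of all tested genes did. Of 8 keratinocyte markers, which include the basal keratins Krt5 and Krt14, Ivl rose (1.55, adjusted p = 0.0292). The median was 0.06, with 4 log2 fold changes negative and 4 positive. The sum, led by Krt1 and Krt10, stood at 170%, 142% and 125%. The exact test called 2 of the 8 markers lower and 3 higher, DESeq2 3 higher and limma-voom 2 higher, and 2 passed as higher without KO3. Of all tested genes, 7.76%, 8.93%, 4.08% and 16.9% were higher in these comparisons, and 7.15% were lower in the exact test. Leaving out any library other than KO3 lost the call of Ivl (adjusted p 0.0512 to 0.117). edgeR's exact test, DESeq2 and limma-voom each called 0 of the fibroblast, melanocyte and macrophage markers. The part of these cell types in the members' values was not tested.

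**Figure D3:**
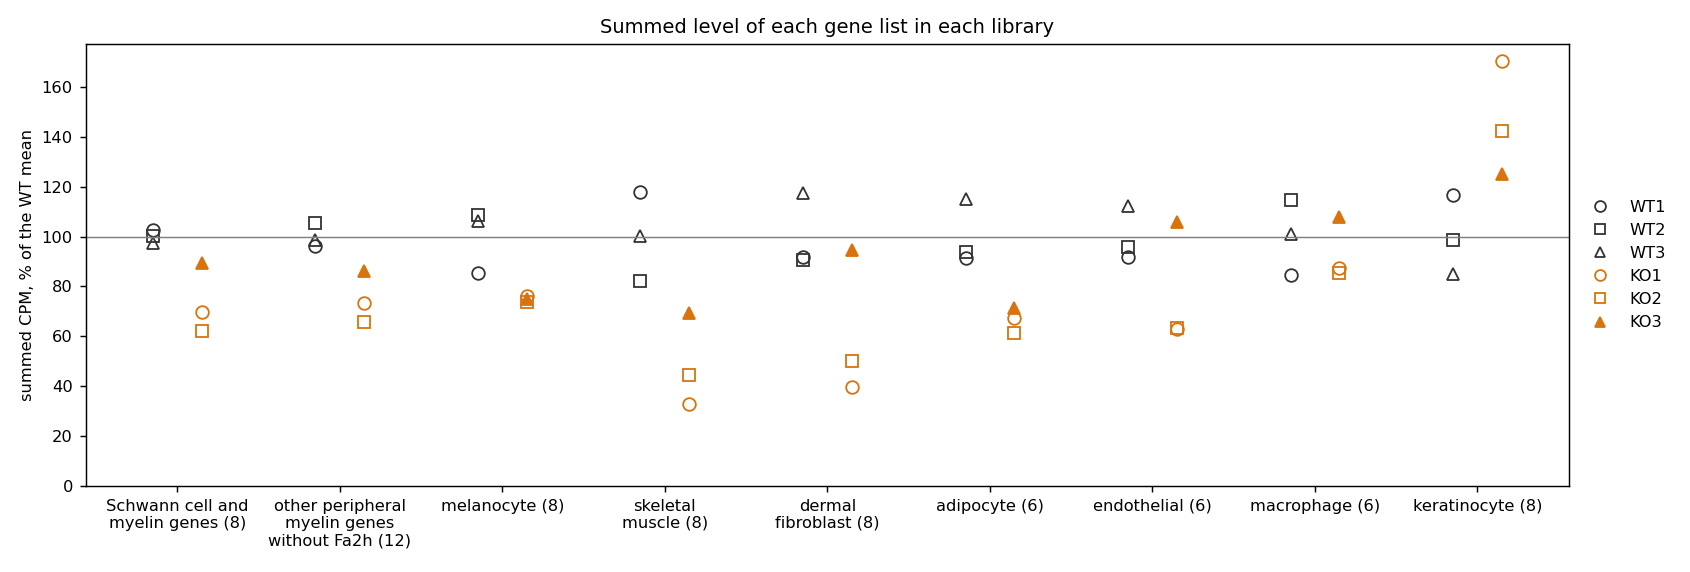
Summed CPM of each gene list in each library, as a percentage of the mean of the 3 WT libraries (line at 100%), with the number of genes summed in brackets. The members in KO1 to KO3 stand at 69.9%, 62.2% and 89.2%, the skeletal muscle markers at 33.0%, 44.6% and 69.3% and the keratinocyte markers at 170%, 142% and 125%.

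Set against the muscle sum, the mean log2 ratio of all 8 members was higher in KO than in WT, by 0.33 (Pmp22) to 0.998 (Egr2), and in 4 members (Mbp, S100b, Egr2 and Cnp) the 3 KO ratios lay above the 3 WT ratios, while the other 4 members overlapped. Of all tested genes, 62.3% separated in this way and 97.6% had a positive difference (median 1.05, with 0.5 added to each count), and all 8 members lay below that median. Set against the fibroblast sum, the difference of means was 0.03 (Pmp22) to 0.71 (Egr2), and the groups overlapped in all 8 members, while 24.0% of all tested genes separated upward and the median difference was 0.76, also above all 8.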

How the data were processed

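Top lip RNA of 6 female mice gave 1 library each (100-nt paired reads, RNA integrity 9 to 9.5). Reads were aligned to GRCm38 by the authors, using TopHat2 2.0.8 and Bowtie2 2.1.0 (versions per the submitters' processing notes), who then counted reads uniquely mapped to annotated genes with HTSeq-count. The deposited values are these raw counts, whole numbers without normalization. The strand setting is not given in the sources used here. 0 columns were unused and 0 entries named no gene.

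Genes reaching 1 CPM in 3 or more libraries were tested in R 4.3.3 with edgeR 4.0.16 (TMM factors, estimateDisp, glmQLFit with legacy=FALSE, glmQLFTest), all 6 libraries and no covariates, with Benjamini-Hochberg adjustment over all tested genes and a threshold of 0.05. The SE is the absolute log2 fold change divided by the square root of F. CPM values are TMM-scaled, and correlations used log2 CPM with a prior count of 2. Levels per kilobase used the union of exons in GENCODE M21, which also gave positions and overlaps. The procedure was tested on simulated data. Counting limits rest on 3 counts and cover counting error only. Labels give 1 library per mouse, with no further account of batches.

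Alternatives were edgeR's exact test, DESeq2 1.42.0, limma-voom (limma 3.58.1), upper-quartile factors, DESeq2's size factors, scaling by library size alone, no filter, at least 10 counts in every library, a replicate block, and each library left out in turn. The members, the gene lists and the tests were chosen with earlier results of these data known. All 8 members are named. Of each other list, the genes past the threshold are named, and otherwise those 2 with the highest mean CPM, plus Mag, Mog, Opalin and Gtf2ird1. For likeness, the 2 genes with the highest correlation to each member are named, and the most alike member where the text turns on it. Hapln2, Ermn, Fa2h, Krt1, Krt10, Krt4, Krt13, Krt5, Krt14 and Dnajc7 were named outside this rule, after their values were seen. Adgrg6 and Adgre1 were found under the older symbols Gpr126 and Emr1. Nefl, Mobp and Olig2 were not analysed here, and some genes of the lists are not reported here and were left out of the counts and sums of their list.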

Additional observations from a re-analysis of the deposited data

How the results depend on the processing

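Every member kept a negative log2 fold change in all 15 alternatives, 9 settings and 6 left-out libraries. Members called lower numbered 0, but 1 by edgeR's exact test and between 0 and 5 when single libraries were left out, the 5 without KO replicate 3. Members called higher numbered 0 throughout. Over all tested genes, those called higher numbered 657, against 1165 by the exact test and 1511 by DESeq2, and those called lower numbered 314, against 1073 by the exact test, 898 by DESeq2, 207 with DESeq2's size factors, 204 with no filter and 204 with at least 10 counts in every library. Leaving out each library in turn gave 208 to 2496 higher and 18 to 2395 lower, the highest both times without KO replicate 3. The 9 genes of the other lists called over 6 libraries all passed without KO replicate 3, and each lost its call without at least 3 of the other libraries. The cause of these shifts was not tested. Same-numbered libraries deviated from their group means with correlations of -0.19, 0.29 and 0.31. From 3 libraries a group, these values cannot decide whether replicate numbers pair the samples. With a replicate block, 580 genes were higher, 217 lower and 0 members called, and of those 9 genes Sostdc1 (adjusted p = 0.0133), Pvalb (0.0265) and Ivl (0.0450) passed. Not every library correlated best with its own number. Scaling moved the median of all genes by less than 0.1 on the log2 scale. With 3 libraries a group, of which KO replicate 3 stood apart, the intervals of Mbp, S100b and Cnp included both no difference and decreases as large as that of Prx.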

Other observations

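Axonal genes differed widely in level. Of 7 genes analysed, 3 were tested, 0 passed, 2 were lower at an unadjusted p under 0.05, 1 was called lower by edgeR's exact test and 0 by DESeq2 and limma-voom. Tubb3 (28.2 to 44.0 CPM in WT and 30.2 to 36.8 CPM in KO) and Stmn2 (6.64 to 8.84 CPM in WT and 4.93 to 6.54 CPM in KO) were the highest. The log2 fold changes were -0.15 (adjusted p = 0.604 in edgeR's quasi-likelihood test) and -0.52 (adjusted p = 0.132). Uchl1, named for its value after it was seen, had the largest change of the 3 (-1.14, adjusted p = 0.115). Without KO3, 2 of the 3 passed as lower, Stmn2 (-0.64, adjusted p = 0.0375) and Uchl1 (-1.62, adjusted p = 0.00994). Of all tested genes, 16.2% were lower in that comparison, 7.15% in the exact test and 16.0% at an unadjusted p under 0.05. Nefm, Nefh, Prph and Snap25 had at most 8 counts in any library.

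Of 6 endothelial markers, 0 passed in edgeR's quasi-likelihood or exact test, DESeq2 or limma-voom and 2 were lower at an unadjusted p under 0.05, with a median log2 fold change of -0.41, and the sum stood at 62.7%, 63.4% and 106% of the WT mean in KO1, KO2 and KO3. Pecam1 (-0.09, adjusted p = 0.801) and Cdh5 (-0.63, adjusted p = 0.150) were the highest. Without KO3, 4 of the 6 passed as lower with a median of -0.65, Cdh5 (-1.002, adjusted p = 0.00179) among them, and Pecam1 had -0.37 (adjusted p = 0.102). Of all tested genes, 16.2% were lower in that comparison, 16.0% at an unadjusted p under 0.05 and 7.15% in the exact test. Of 4 tested T cell markers, 0 passed, 1 (Thy1) was lower at an unadjusted p under 0.05 and in the exact test, and DESeq2 and limma-voom called 0, with a median of 0.31, and their sum was made up mostly of Thy1 (-0.79, adjusted p = 0.101), which nerve and fibroblasts also express. Cd2 (0.42, adjusted p = 0.342) was the second highest. Without KO3, Thy1 was the 1 that passed (-1.14, adjusted p = 0.00219), beside the same 16.2% of all tested genes.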
